A study of Homo sapiens with 8 samples.

Results

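The type I interferon-stimulated genes examined here are 45 symbols, made up of the transcription factor genes STAT2, IRF9 and IRF7 and of genes whose products act against viruses or in the ISG15 ubiquitin-like system. They were taken by symbol from a table of 62700 gene rows, in which all 45 had a row. After a filter on low counts, 44 of them were among the 17535 genes tested, and the other one, IFI27, had too few reads. Membership goes by gene name, with no threshold on a measured value. The study sequenced poly-A RNA from foam cells made from THP-1, a human monocytic leukaemia line, and asked how auranofin affects them. Auranofin (AF) is a gold compound that inhibits thioredoxin reductase.

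The AF group is 4 libraries of foam cells given 0.5 µM auranofin, and the DMSO group is 4 libraries of foam cells given the vehicle at under 0.1% by volume. The cells of both groups had been turned into macrophages with 50 ng/mL of the phorbol ester PMA for 72 h, and both were loaded with acetylated low-density lipoprotein (AcLDL) for 48 h. By the protocol of the samples the drug or vehicle was added 24 h before AcLDL and kept on during loading, whereas the design text of the series places it after loading. The labels name no interferon treatment in either group. THP-1 is a single leukaemia line with PMA-driven differentiation, so that it stands in for macrophages only in part. The labels do not state whether the 4 libraries of a group are separate cultures, and each library shares the stem of its name with 1 other of its group, which leaves 2 stems a group. The p-values therefore rest on library-to-library spread alone, and that spread may be only technical.

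Type I interferons bind the IFNAR1 and IFNAR2 receptor chains, which act through the kinases JAK1 and TYK2 on STAT proteins. STAT2 and IRF9 are subunits of the ISGF3 complex, which binds interferon-stimulated response elements (ISRE) near target genes. The targets include effectors that block viral entry, translation or replication, and factors such as USP18 that restrain the receptor. In macrophages a low autocrine interferon tone can keep such genes on without infection.

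Sequencing depth was between 19336073 and 32325981 counts per library. Ribosomal RNA genes took 34.8% of the counts in AF replicate 1, against 0.743% to 0.963% in the other 7 libraries, and TMM scaling gave that library a factor of 0.679. All levels are TMM-scaled CPM, that is, counts adjusted for library size. Of 10 macrophage markers, all averaged over 1 CPM, and they summed to 6459 to 6951 CPM in AF libraries and 6370 to 7117 CPM in DMSO libraries. Of these 10 markers 4 rose and 3 fell, with log2 fold changes from -1.497 to 0.69. Of 4 plasmacytoid dendritic cell markers 2 passed 1 CPM, CLEC4C was at 0 in every library, and the sum was 35.3 to 39.5 CPM in AF libraries against 41.2 to 51.0 CPM in DMSO libraries. Of 4 NK cell markers 2 passed 1 CPM, NCR1 was at 0, and the sum was 17.2 to 20.6 CPM in AF libraries against 20.9 to 25.5 CPM in DMSO libraries. The T cell, B cell, fibroblast and epithelial marker sums reached at most 3.13 CPM in any library and overlapped between groups. The plasmacytoid dendritic cell and NK cell sums moved in the same direction as most of the members that changed, and their part in the results was not tested. Of the plasmacytoid dendritic cell markers 2 were tested, and 1 fell (log2 fold change -0.34) while 1 did not pass (0.17). Of the NK cell markers 2 were tested and neither passed (-0.26 and -0.21). As a check of the drug label, TXNRD1 and NQO1, targets of the oxidant-responsive factor NRF2, rose by 0.40 ± 0.06 and 0.86 ± 0.06 on the log2 scale (edgeR adjusted p = 0.000771 and 1.16e-06), with no overlap between groups. The TXNRD1 call was lost with scaling by library totals alone (adjusted p = 0.498) and in replicates 1 and 4 alone (0.183).

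Promoters were taken from RefSeq (GRCh38.p14) for 37 of the 45 members, and the 250 bases before the start were searched on both strands for the ISRE core, searched as GAAA, any 2 bases and GAAA again. A core was found in 22 of the 37 promoters, which is 59.5%, against 3.02% of 35116 promoters in the table. Cores were in 7 of the 13 members that fell and had a promoter, in 13 of the 22 that did not pass the test and in the promoter of PLSCR1, the member that rose. A match is a run of letters and not a measured binding site. The following 30-base stretches are written 5′ to 3′ on the strand of the gene, with each whole core in capitals. They show matches to the searched letters, with differing middle bases. The genes are ones that fell (OAS3, ISG15, EPSTI1, IFIT1, IFI44L), that did not pass the test (IFIT3, BST2, HERC5) and that rose (PLSCR1).
OAS3: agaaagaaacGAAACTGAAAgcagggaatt
ISG15: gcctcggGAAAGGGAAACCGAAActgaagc
EPSTI1: ctgattctgaGAAACCGAAActcagctgtt
IFIT1: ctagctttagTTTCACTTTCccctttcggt
IFI44L: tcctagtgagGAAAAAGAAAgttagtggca
IFIT3: agccgttaggTTTCATTTTCctcctcccaa
BST2: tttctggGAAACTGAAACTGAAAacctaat
HERC5: attacagTTTCCTTTTCCTTTTCgattccg
PLSCR1: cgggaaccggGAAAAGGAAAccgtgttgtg

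In the IFIT1, IFIT3 and HERC5 stretches the core reads on the other strand, and in ISG15, BST2 and HERC5 overlapping cores are capitalised together. The stretches lie at chr12:112938321-112938350 (plus strand) for OAS3, chr1:1013377-1013406 (plus) for ISG15, chr13:42992272-42992301 (minus) for EPSTI1, chr10:89392497-89392526 (plus) for IFIT1 and chr1:78620274-78620303 (plus) for IFI44L. They lie at chr10:89327831-89327860 (plus) for IFIT3, chr19:17405738-17405767 (minus) for BST2, chr4:88456987-88457016 (plus) for HERC5 and chr3:146544667-146544696 (minus) for PLSCR1. For longer context, the whole 250 bases before IFI44, which fell, and before IFIT5, which did not pass the test, are given with the cores in capitals. The IFI44 window is chr1:78649539-78649788 (plus) and the IFIT5 window is chr10:89414318-89414567 (plus).
IFI44: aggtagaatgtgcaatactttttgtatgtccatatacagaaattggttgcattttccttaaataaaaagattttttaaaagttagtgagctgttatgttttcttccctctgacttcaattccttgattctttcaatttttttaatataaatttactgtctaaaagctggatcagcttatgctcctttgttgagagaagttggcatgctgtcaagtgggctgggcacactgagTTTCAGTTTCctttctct
IFIT5: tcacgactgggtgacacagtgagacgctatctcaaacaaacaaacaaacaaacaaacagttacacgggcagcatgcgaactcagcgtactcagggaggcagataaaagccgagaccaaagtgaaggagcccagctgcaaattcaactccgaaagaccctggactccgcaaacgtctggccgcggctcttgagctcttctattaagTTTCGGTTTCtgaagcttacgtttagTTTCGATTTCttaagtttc

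No core of these exact letters stands in the windows of MX1, RSAD2, CMPK2, PARP9, HERC6 and OAS1, the other 6 of the 13. The strict search can miss variant elements. Only the first listed promoter of each symbol was searched, so an element before another start of a gene would be missed. The counts of members with a core, by result, share these limits. With 1 mismatch allowed a core was in 11 of the 13, in 18 of the 22 that did not pass and in 29.4% of all promoters. The interferon-gamma-type GAS element, searched as TTCNNNGAA (N for any base), which reads the same on both strands, was in 9 of the 37 member promoters (24.3%) and in 6.57% of all promoters. It was in 3 of the 13 promoters of members that fell, namely EPSTI1, IFITM1 and OAS1. In the promoters of EPSTI1, BST2 and IFI27 a GAS match overlaps an ISRE core, so that the counts of the 2 elements share bases there.

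With auranofin a part of the interferon-stimulated set fell while much of it did not pass the test. Of the 44 members tested, 16 fell and 1 rose at an adjusted p under 0.05 in edgeR's quasi-likelihood test with Benjamini-Hochberg adjustment over all genes. The members that fell are 36.4% of those tested, in a set chosen with earlier results of these data known, and of all 17535 genes 7.81% fell, 7.62% rose and 15.4% were called in either direction. The median log2 fold change (AF over DMSO) was -0.16 over the 44 members, and 0.005 over all genes tested. Scaling by library totals alone, which moved the median of all genes to -0.15, called 13 members lower and none higher, of which 12 are among the 17, and 20.7% of the genes it called were higher, against 49.4% with TMM scaling. In 16 members all 4 AF libraries lay below all 4 DMSO libraries, against 9.68% of all genes, and in 1 member all AF libraries lay above, against 9.86% of all genes. In bulk RNA a smaller share of cells that express a gene and less RNA per cell cannot be told apart.

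Of the 16 members that fell, 5 fell by at least 2-fold, namely IFI44L, MX1, RSAD2, CMPK2 and EPSTI1, and 11 by less. Over all 44 tested members 31 had a log2 fold change below 0, or 15 beyond those that fell, against 49.2% of all genes. Among the 27 that did not pass, 15 had a log2 fold change below 0, 12 had one above 0, and 19 lay within 0.2 of 0. Of those 27, 8 had an unadjusted p under 0.05 and did not pass after adjustment: STAT2, MX2, OASL, IFIT5, IFIH1, IFITM2, UBE2L6 and PARP12.

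**Figure D1:**
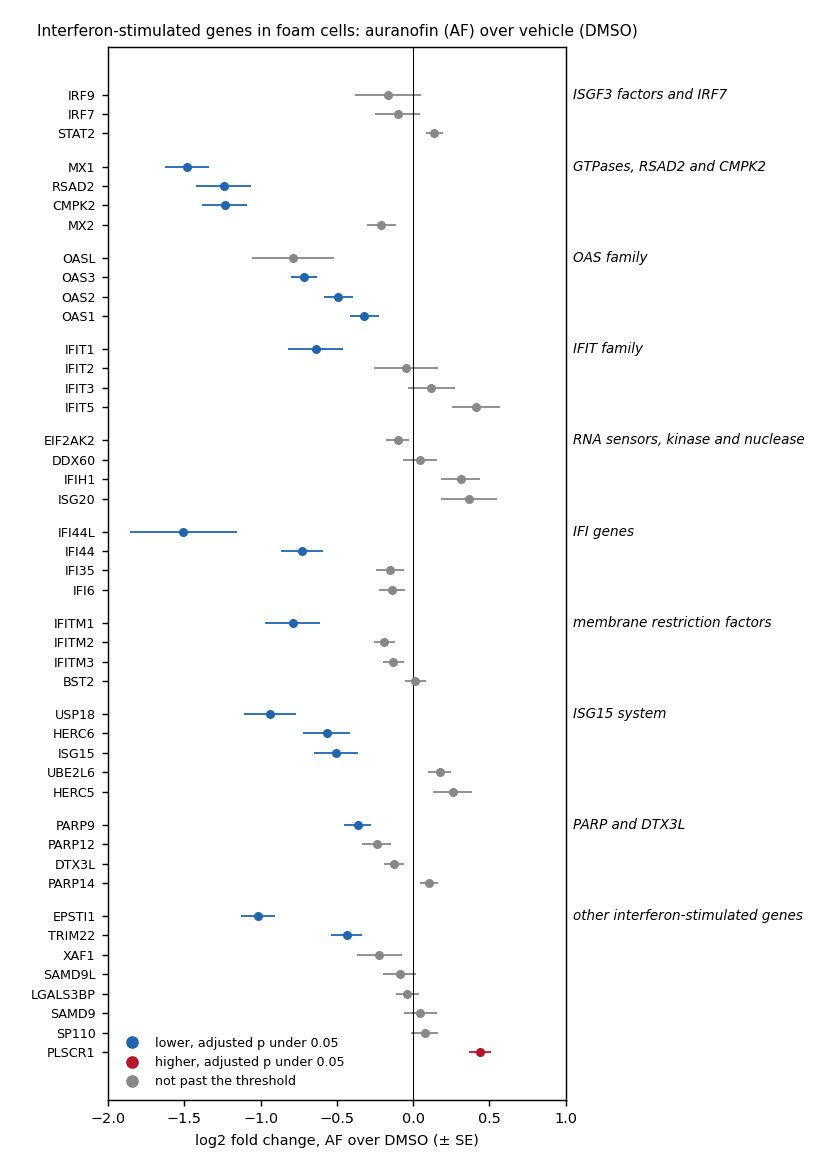
The log2 fold change (AF over DMSO) of each of the 44 tested interferon-stimulated genes is plotted on the horizontal axis with its standard error as a bar, grouped by role down the page, from n = 4 libraries a group. Members that fell reach -1.51 (IFI44L), PLSCR1 at 0.44 is the member that rose, and the transcription factor genes STAT2, IRF9 and IRF7 lie near 0.

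With all 8 libraries none of the 3 transcription factor genes passed the test. STAT2, the subunit of ISGF3 that carries its activation domain, had 102.5, 106, 108 and 91.2 CPM in AF libraries and 92.1, 93.6, 90.2 and 94.3 CPM in DMSO libraries. In 3 of the AF libraries it lay above every DMSO library and AF replicate 4 lay among them, and the log2 fold change was 0.14 ± 0.06 (SE; edgeR adjusted p = 0.123). STAT2 passed, at 0.19, without AF replicate 4 (adjusted p = 0.0114). IRF9, the DNA-binding subunit, was low, with 2.23, 1.33, 1.85 and 1.95 CPM in AF libraries and 1.51, 2.33, 1.87 and 2.50 CPM in DMSO libraries. The groups overlap, and the log2 fold change was -0.17 ± 0.22 (adjusted p = 0.657). On the annotation used here 48.4% of the exon bases of IRF9 are also covered by AL136295.5 on the same strand, so its count may miss reads. IRF7, which amplifies interferon production and is itself induced by interferon, had 8.07, 7.41, 5.82 and 5.11 CPM in AF libraries and 7.32, 7.84, 5.75 and 7.30 CPM in DMSO libraries. Its groups overlap as well (log2 fold change -0.10 ± 0.15, adjusted p = 0.694).

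The dynamin-like GTPases and the RSAD2 and CMPK2 pair held the members with the steepest falls apart from IFI44L. MX1 (chromosome 21, 41420304 to 41459214, plus strand, GRCh38), a GTPase that traps incoming viral nucleocapsids, had 3.45, 2.76, 3.68 and 3.43 CPM in AF libraries against 7.22, 10.7, 10.1 and 9.18 CPM in DMSO libraries. The highest AF library lay far below the lowest DMSO library. MX1 averaged 3.33 ± 0.397 CPM with AF and 9.30 ± 1.52 CPM with DMSO (SD, n = 4 each), and its log2 fold change was -1.48 ± 0.15 (SE; edgeR adjusted p = 1.37e-05). RSAD2, which encodes viperin, a radical-SAM enzyme that makes a chain-terminating nucleotide, had 1.91, 1.16, 1.53 and 1.52 CPM in AF libraries against 4.00, 3.61, 3.19 and 3.41 CPM in DMSO libraries. CMPK2, a mitochondrial nucleotide kinase whose gene adjoins RSAD2, had 3.40, 2.70, 2.99 and 2.96 CPM in AF libraries against 6.05, 8.30, 7.96 and 5.91 CPM in DMSO libraries. In both genes every AF library lay well below every DMSO library. The log2 fold change was -1.24 ± 0.18 for RSAD2 (adjusted p = 0.000344) and -1.24 ± 0.15 for CMPK2 (adjusted p = 8.3e-05). MX2, a nuclear-envelope GTPase active against HIV, had 24.0, 22.4, 21.8 and 23.9 CPM in AF libraries against 29.2, 24.3, 27.6 and 25.2 CPM in DMSO libraries. Its groups do not overlap, but its log2 fold change of -0.21 ± 0.09 did not pass (adjusted p = 0.151).

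Of the 4 members of the oligoadenylate synthase family 3 fell, namely OAS1, OAS2 and OAS3, whose products activate the antiviral nuclease RNase L on sensing double-stranded RNA. OAS3, the synthase held to be the main activator of RNase L in human cells, had 29.4, 27.7, 26.6 and 23.9 CPM in AF libraries against 43.9, 47.0, 44.9 and 40.7 CPM in DMSO libraries. All AF libraries of OAS3 lay below all DMSO libraries, and it averaged 26.9 ± 2.27 CPM with AF and 44.1 ± 2.596 CPM with DMSO. The log2 fold change of OAS3 was -0.71 ± 0.09 (adjusted p = 8.3e-05). OAS2 had 14.6, 13.5, 15.7 and 15.01 CPM in AF libraries against 20.01, 18.9, 20.4 and 23.4 CPM in DMSO libraries. OAS1 had 13.96, 10.97, 11.3 and 13.1 CPM in AF libraries against 15.02, 15.1, 14.8 and 16.4 CPM in DMSO libraries. Neither overlaps between groups, although AF replicate 1 of OAS1 came near the lowest DMSO library. Their log2 fold changes were -0.49 ± 0.10 for OAS2 (adjusted p = 0.0032) and -0.32 ± 0.10 for OAS1 (adjusted p = 0.0351). The OAS1 call was lost without AF replicate 2 or 3 or without any 1 of the 4 DMSO libraries, at adjusted p-values of 0.0833, 0.107, 0.0518, 0.06, 0.0506 and 0.0622. It was also lost with scaling by library totals alone (0.17) and with libraries of 1 name stem summed (0.0626). OASL, a catalytically inactive relative that enhances RIG-I signalling, had 1.59, 0.801, 0.813 and 1.25 CPM in AF libraries and 1.37, 1.67, 2.51 and 1.97 CPM in DMSO libraries. Those groups overlap through AF replicate 1, and the log2 fold change of -0.79 ± 0.27 did not pass (adjusted p = 0.0602). OASL passed in 8 of the 20 alternatives, among them DESeq2 (adjusted p = 0.0405), library totals alone (0.0342), and edgeR without AF replicate 1 (0.0228) or DMSO replicate 1 (0.0449).

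Among the 4 IFIT genes, which encode tetratricopeptide-repeat proteins that bind foreign RNA ends, 1 fell. IFIT1, which binds RNA lacking cap methylation, had 1.38, 2.16, 1.496 and 1.87 CPM in AF libraries against 2.5998, 3.03, 2.68 and 2.59 CPM in DMSO libraries. Every AF library of IFIT1 was below every DMSO library (log2 fold change -0.64 ± 0.18, adjusted p = 0.0269). The IFIT1 call was lost without AF replicate 1 or 3 or DMSO replicate 2 or 3, at adjusted p-values of 0.0663, 0.0951, 0.089 and 0.0627, and with scaling by library totals alone (0.0608). IFIT2, which works with IFIT1 and IFIT3, had 4.19, 2.31, 2.05 and 3.55 CPM in AF libraries and 3.11, 2.87, 3.15 and 3.12 CPM in DMSO libraries. IFIT3, which stabilises IFIT1 on RNA, had 7.32, 5.40, 5.43 and 7.95 CPM in AF libraries and 5.82, 5.55, 5.28 and 7.30 CPM in DMSO libraries. In both genes AF replicates 1 and 4 were the higher pair, and the AF range covered most or all of the DMSO range. IFIT5, which binds RNA with a 5′ phosphate, had 5.52, 4.21, 5.01 and 5.23 CPM in AF libraries and 3.83, 3.61, 2.81 and 4.71 CPM in DMSO libraries. The log2 fold changes that did not pass were -0.05 ± 0.21 for IFIT2 (adjusted p = 0.908), 0.12 ± 0.15 for IFIT3 (adjusted p = 0.652) and 0.41 ± 0.16 for IFIT5 (adjusted p = 0.0941). IFIT5 passed without DMSO replicate 4 (0.0398).

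The 4 RNA sensors, kinase and nuclease had no member that passed. IFIH1, which encodes the cytosolic double-stranded RNA sensor MDA5, had 24.2, 31.5, 33.2 and 29.01 CPM in AF libraries and 24.7, 22.04, 19.5 and 29.1 CPM in DMSO libraries. The groups of IFIH1 overlap through AF replicate 1 and DMSO replicate 4, and the log2 fold change was 0.31 ± 0.13 (adjusted p = 0.119). Without AF replicate 1 IFIH1 passed the test at 0.39 (adjusted p = 0.0243), and without DMSO replicate 4 at 0.42 (adjusted p = 0.0371). ISG20, an exonuclease that degrades single-stranded RNA, had 3.93, 3.11, 2.99 and 2.46 CPM in AF libraries and 2.16, 2.21, 2.26 and 3.07 CPM in DMSO libraries (log2 fold change 0.36 ± 0.18, adjusted p = 0.2). Its groups overlap through DMSO replicate 4. DDX60, a helicase linked to RIG-I signalling, and EIF2AK2, the kinase PKR that halts translation on double-stranded RNA, had log2 fold changes of 0.04 and -0.10. DDX60 ranged from 18.8 to 25.1 CPM in AF libraries and from 18.6 to 22.5 CPM in DMSO libraries, and EIF2AK2 from 53.0 to 67.5 CPM in AF libraries and from 58.0 to 68.7 CPM in DMSO libraries.

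In the group of genes named IFI, 2 of the 4 tested members fell. IFI44L, a feedback restrainer of the interferon response and a gene common in interferon signatures, had 0.212, 0.534, 0.976 and 0.780 CPM in AF libraries against 1.92, 1.09, 1.75 and 2.74 CPM in DMSO libraries. No AF library of IFI44L reached the lowest DMSO library, although its level was low throughout. It averaged 0.625 ± 0.329 CPM with AF and 1.87 ± 0.680 CPM with DMSO, and its log2 fold change was -1.51 ± 0.35 (adjusted p = 0.00964). The neighbouring IFI44 had 5.04, 4.63, 5.04 and 7.14 CPM in AF libraries against 8.21, 8.19, 9.88 and 9.94 CPM in DMSO libraries. AF replicate 4 stood closest to the DMSO libraries, and the log2 fold change of IFI44 was -0.73 ± 0.14 (adjusted p = 0.00297). IFI6, a mitochondrial and endoplasmic reticulum protein, had 78.0, 89.5, 87.2 and 63.9 CPM in AF libraries and 85.4, 87.6, 93.6 and 84.5 CPM in DMSO libraries. IFI35 ranged from 24.6 to 29.1 CPM in AF libraries and from 28.1 to 31.8 CPM in DMSO libraries. Both sets overlap, with log2 fold changes of -0.14 for IFI6 (adjusted p = 0.302) and -0.15 for IFI35 (adjusted p = 0.286). IFI27 had 4, 2, 5 and 0 reads in AF libraries and 13, 6, 2 and 4 reads in DMSO libraries, too few to test.

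Of the 4 membrane restriction factors, which stop enveloped viruses from entering or leaving the cell, 1 fell, and it was the one with the lowest level per kb of exon. IFITM1, which sits mainly at the cell surface, had 2.12, 2.13, 2.02 and 1.87 CPM in AF libraries against 2.70, 3.96, 4.43 and 3.03 CPM in DMSO libraries. All AF libraries of IFITM1 lay below all DMSO libraries (log2 fold change -0.79 ± 0.18, adjusted p = 0.0089). IFITM2, a late-endosomal member, had 49.6, 49.1, 44.5 and 42.3 CPM in AF libraries and 51.9, 53.4, 56.6 and 49.5 CPM in DMSO libraries. IFITM3, which restricts influenza virus in endosomes, had 93.5, 93.7, 82.1 and 77.0 CPM in AF libraries and 98.4, 99.4, 92.8 and 88.4 CPM in DMSO libraries. Both overlap between groups, with log2 fold changes of -0.19 ± 0.07 for IFITM2 (adjusted p = 0.0825) and -0.13 ± 0.07 for IFITM3 (adjusted p = 0.223). IFITM1 and IFITM2 share 32.5% of the exon bases of IFITM1 and 22.75% of those of IFITM2 on the same strand, and the genes are near-identical in part, so that reads may be split or lost between them. BST2, or tetherin, which holds budding virions to the cell, had 119.8, 129.9, 126.2 and 103.9 CPM in AF libraries and 118.2, 128.3, 119.5 and 109.2 CPM in DMSO libraries. Its AF range contains its DMSO range, and the log2 fold change was 0.01 (adjusted p = 0.918).

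The ISG15 system attaches the ubiquitin-like protein ISG15 to other proteins, and 3 of its 5 members fell. ISG15 itself had 7.22, 7.501, 6.86 and 4.45 CPM in AF libraries against 9.72, 10.0, 9.02 and 8.22 CPM in DMSO libraries. USP18, which removes ISG15 and restrains the interferon receptor, had 1.91, 1.87, 2.73 and 2.14 CPM in AF libraries against 3.39, 4.31, 4.38 and 4.66 CPM in DMSO libraries. Neither gene overlaps between groups. The log2 fold change was -0.51 ± 0.14 for ISG15 (adjusted p = 0.0269) and -0.94 ± 0.17 for USP18 (adjusted p = 0.00193). HERC6, a HECT-type ubiquitin ligase that attaches ISG15 in the mouse, had 4.30, 3.68, 4.16 and 5.30 CPM in AF libraries and 7.15, 6.52, 7.15 and 4.85 CPM in DMSO libraries. HERC6 is the member that fell in spite of an overlap, since AF replicate 4 lay above DMSO replicate 4 (log2 fold change -0.57 ± 0.15, adjusted p = 0.0219). HERC5, the main human ligase for ISG15, had 7.96, 7.06, 7.06 and 9.32 CPM in AF libraries and 7.46, 5.59, 5.96 and 7.16 CPM in DMSO libraries. UBE2L6, the conjugating enzyme of the pathway, had 42.8, 45.5, 40.6 and 37.0 CPM in AF libraries and 37.0, 35.3, 37.4 and 37.4 CPM in DMSO libraries. These ranges touch or overlap, and neither HERC5 (log2 fold change 0.26 ± 0.13, adjusted p = 0.199) nor UBE2L6 (0.17 ± 0.08, adjusted p = 0.151) passed. The ISG15 call was lost without AF replicate 3 or DMSO replicate 1, 2 or 3, at adjusted p-values of 0.054, 0.0704, 0.0843 and 0.0593. The HERC6 call was lost without AF replicate 2 or 3 or DMSO replicate 1, 2 or 3, at 0.0635, 0.0656, 0.0694, 0.0599 and 0.0734.

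Of the 4 genes for ADP-ribosyltransferases and the partner ligase DTX3L, 1 fell. PARP9, which forms a complex with DTX3L, had 14.3, 14.6, 14.3 and 16.3 CPM in AF libraries against 19.02, 18.4, 18.8 and 20.5 CPM in DMSO libraries. No AF library reached a DMSO library, and the log2 fold change was -0.36 ± 0.09 (adjusted p = 0.0116). The PARP9 call was lost with libraries scaled by their totals alone (adjusted p = 0.145) and with libraries of 1 name stem summed (0.0516). DTX3L, transcribed from the other strand next to PARP9, had 60.3, 58.9, 58.3 and 65.2 CPM in AF libraries and 67.7, 60.3, 62.8 and 74.1 CPM in DMSO libraries, which overlap (log2 fold change -0.13, adjusted p = 0.231). PARP12 ranged from 22.7 to 25.6 CPM in AF libraries and from 25.03 to 30.9 CPM in DMSO libraries, and PARP14 from 66.7 to 77.2 CPM in AF libraries and from 64.4 to 70.8 CPM in DMSO libraries. Their log2 fold changes were -0.24 for PARP12 (adjusted p = 0.1; 0.0377 with DESeq2) and 0.10 for PARP14 (adjusted p = 0.277).

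The remaining 8 members held 2 genes that fell and the one that rose. EPSTI1, an interferon-inducible gene first described in epithelial-stromal interaction, had 4.67, 4.18, 3.97 and 4.80 CPM in AF libraries against 8.76, 8.03, 9.36 and 9.42 CPM in DMSO libraries. The groups are far apart, at 4.40 ± 0.394 CPM with AF and 8.89 ± 0.648 CPM with DMSO (SD, n = 4 each), and the log2 fold change was -1.02 ± 0.11 (adjusted p = 4.02e-05). TRIM22, a ring-finger restriction factor, had 6.26, 6.17, 6.21 and 7.06 CPM in AF libraries against 9.07, 7.99, 9.07 and 8.5995 CPM in DMSO libraries. TRIM22 does not overlap between groups and changed by -0.43 ± 0.10 on the log2 scale (adjusted p = 0.00948), a call lost with scaling by library totals alone (0.063). PLSCR1 (chromosome 3, 146515180 to 146544864, minus strand), a phospholipid scramblase that limits viral entry, had 71.9, 66.8, 71.7 and 74.1 CPM in AF libraries against 50.9, 48.0, 50.1 and 61.0 CPM in DMSO libraries. Every AF library lay above every DMSO library, with means of 71.1 ± 3.06 CPM with AF and 52.5 ± 5.78 CPM with DMSO. The log2 fold change of PLSCR1 was 0.44 ± 0.07 (adjusted p = 0.000957), and its call was lost when libraries were scaled by their totals alone. SAMD9 and SAMD9L, paralogs that restrict poxviruses, XAF1, a partner of the apoptosis inhibitor XIAP, the nuclear body gene SP110 and the secreted glycoprotein gene LGALS3BP did not pass. Their log2 fold changes lay between -0.22 (XAF1) and 0.07 (SP110). SAMD9 ranged from 29.3 to 39.7 CPM in AF libraries and from 29.1 to 34.0 CPM in DMSO libraries, and SAMD9L from 21.6 to 26.2 CPM in AF libraries and from 23.5 to 31.4 CPM in DMSO libraries. XAF1 ranged from 3.44 to 4.09 CPM in AF libraries and from 3.45 to 5.17 CPM in DMSO libraries. SP110 ranged from 27.4 to 31.8 CPM in AF libraries and from 26.5 to 28.99 CPM in DMSO libraries, and LGALS3BP from 50.0 to 61.5 CPM in AF libraries and from 50.3 to 60.3 CPM in DMSO libraries. All 5 overlap between groups. Genes on the other strand cover 38.3% of the exon bases of XAF1, 20.9% of those of SP110 and 21.3% of those of IFITM3, and OR56B1 covers 10.7% of those of TRIM22 on the same strand, so that with the strand setting unknown their counts are less certain.

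**Figure D2:**
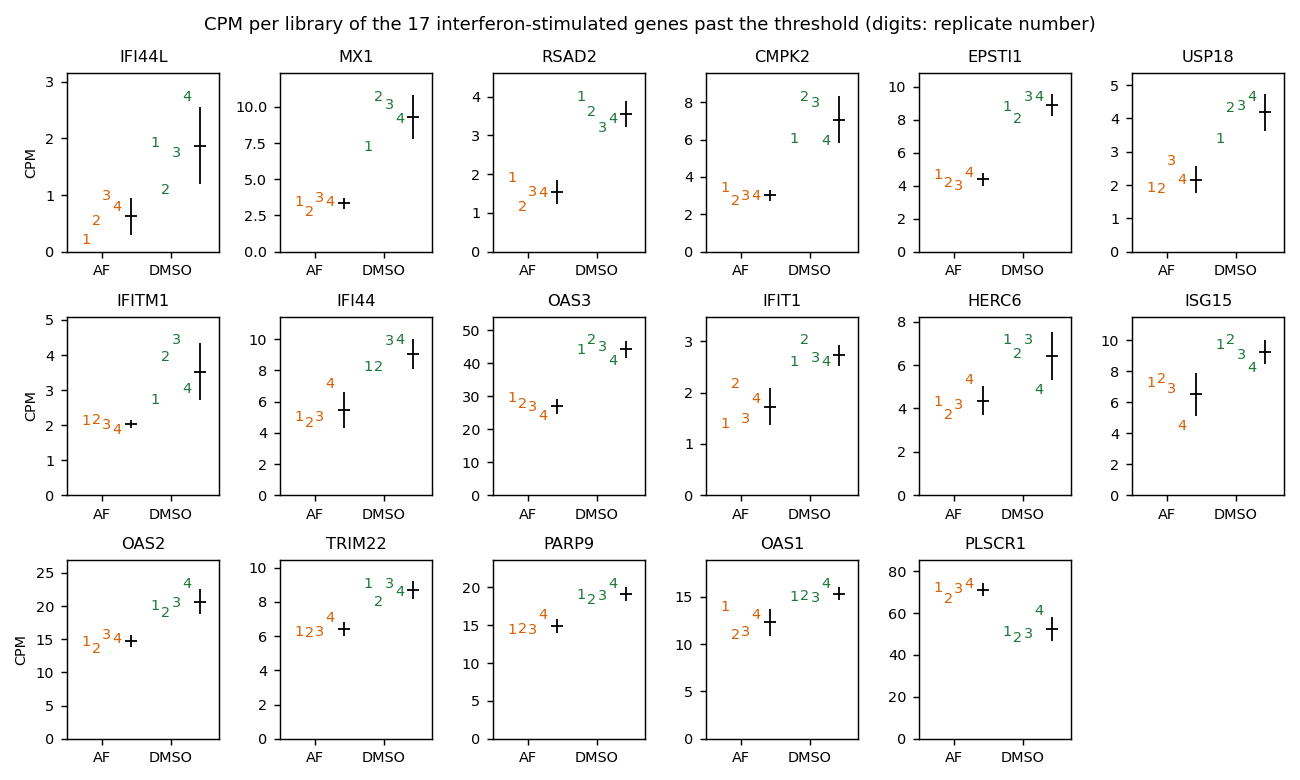
Each panel is 1 of the 17 interferon-stimulated genes that passed the test, with the CPM of each library as a point (AF to the left of DMSO) and the group mean with its SD as a bar. AF points lie below all DMSO points in 15 of the 16 genes that fell, HERC6 overlaps, and PLSCR1 lies above.

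The shift was present in each AF library. Taking each member as log2 of its CPM over the DMSO mean, the median over the 44 members was -0.12 in AF replicate 1, -0.25 in AF replicate 2, -0.23 in AF replicate 3 and -0.25 in AF replicate 4. The number of members below all 4 DMSO libraries was 19, 25, 24 and 25 in these libraries, and the number above all 4 was 10, 7, 6 and 9. As shares of the 44 members those below are 43.2%, 56.8%, 54.5% and 56.8%, against 25.7%, 27.0%, 28.03% and 30.4% of all genes tested. Those above are 22.7%, 15.9%, 13.6% and 20.5% of the members, against 26.5%, 27.8%, 27.4% and 31.5% of all genes. AF replicate 1, the library rich in ribosomal RNA, thus had the smallest shift. Without it 18 members passed, 16 lower and 2 higher. The counts of all 45 members together were 13.4, 13.3, 13.4 and 12.9 per 10000 protein-coding counts in AF libraries, against 14.3, 13.95, 13.8 and 14.5 in DMSO libraries, so that the sums do not overlap.

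**Figure D3:**
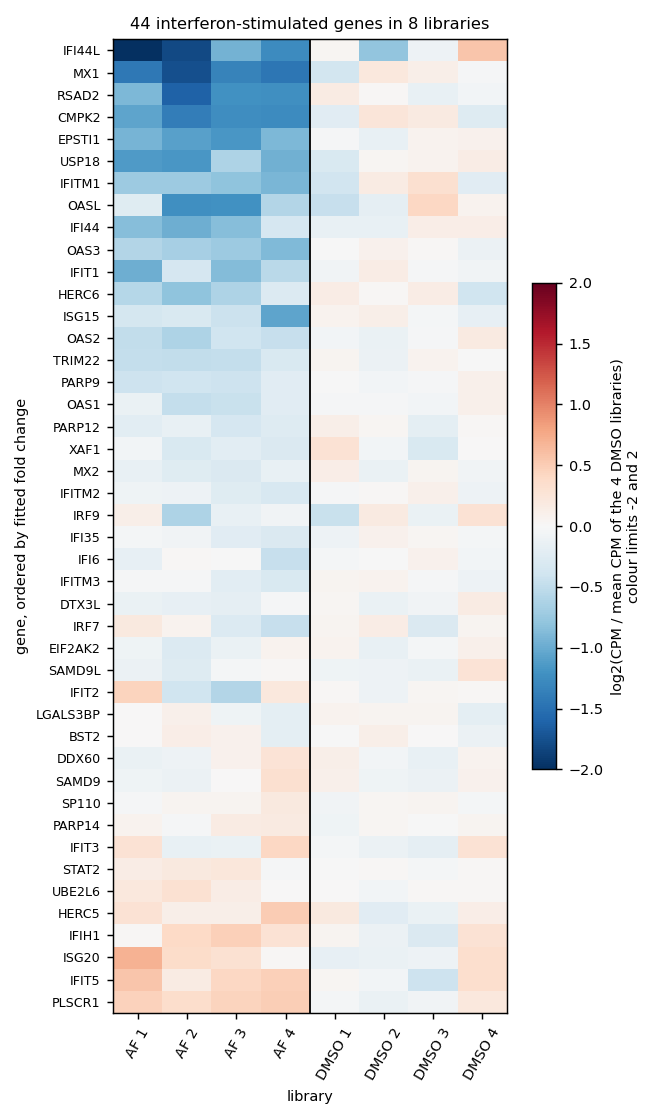
Rows are the 44 tested interferon-stimulated genes in order of fitted fold change, and columns are the 8 libraries, AF to the left of DMSO. Colour gives log2 of CPM relative to the DMSO mean of the gene. The rows of MX1, RSAD2, CMPK2, EPSTI1 and IFI44L are low in all 4 AF libraries, while STAT2, BST2 and SAMD9 show little difference.

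Members that lie beside each other in the genome were compared within each library as a log2 ratio of counts, which does not depend on library scaling. This comparison was chosen after the values were seen. There were 13 neighbouring pairs within 100 kb, each tested with an exact two-sided permutation test over the 8 libraries, for which the smallest possible p is 0.0286, and none passed at 0.05 after adjustment over the 13. In 6 pairs the AF and DMSO ratios did not overlap (exact permutation p = 0.0286 each, the smallest the exact test allows, and 0.0619 after adjustment). Each of these 6 pairs holds a member that fell, so the ratios are not independent of those calls. Neighbouring genes outside the set were not compared. The MX1 to MX2 ratio averaged -2.80 ± 0.18 in AF libraries and -1.53 ± 0.35 in DMSO libraries (log2, SD, n = 4 each), a difference of -1.27. The IFIT1 to IFIT5 ratio differed by -1.11, the HERC6 to HERC5 ratio by -0.82, the IFITM1 to IFITM3 ratio by -0.63, the IFITM1 to IFITM2 ratio by -0.58 and the PARP9 to DTX3L ratio by -0.24. In each pair the member that fell, or fell more, was set on top of the ratio, which fixes the sign of the difference. RSAD2 and CMPK2 moved side by side, with a ratio of -0.996 ± 0.16 in AF libraries and -0.98 ± 0.34 in DMSO libraries (difference -0.02, exact permutation p = 0.914). The differences for the other 6 pairs lay between -0.97 (IFI44L to IFI44) and -0.12 (SAMD9L to SAMD9).

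Levels spanned a wide range when CPM were divided by exon length in kb. In DMSO libraries BST2 was at 106.2 ± 7.002 CPM per kb, IFI6 at 101.5 ± 4.71, IFITM3 at 70.3 ± 3.81 and IFITM2 at 34.2 ± 1.92 (SD, n = 4), and none of these 4 passed the test. At the low end IFI44L was at 0.183 ± 0.0664, ISG20 at 0.329 ± 0.0592, OASL at 0.534 ± 0.139, IRF9 at 0.541 ± 0.118 and IFIT1 at 0.591 ± 0.0443 CPM per kb in DMSO libraries. Of the 22 members with the higher DMSO levels 5 fell and 1 rose, with a median log2 fold change of -0.11, and of the 22 with the lower levels 11 fell and none rose, with a median of -0.34. Across the 44 members, which share libraries and are not independent, Pearson's r between the log2 DMSO level and the log2 fold change was 0.37 and Spearman's rho was 0.36. Over 17013 genes with a length the values were -0.02 and -0.06. The DMSO level enters both measures.

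**Figure D4:**
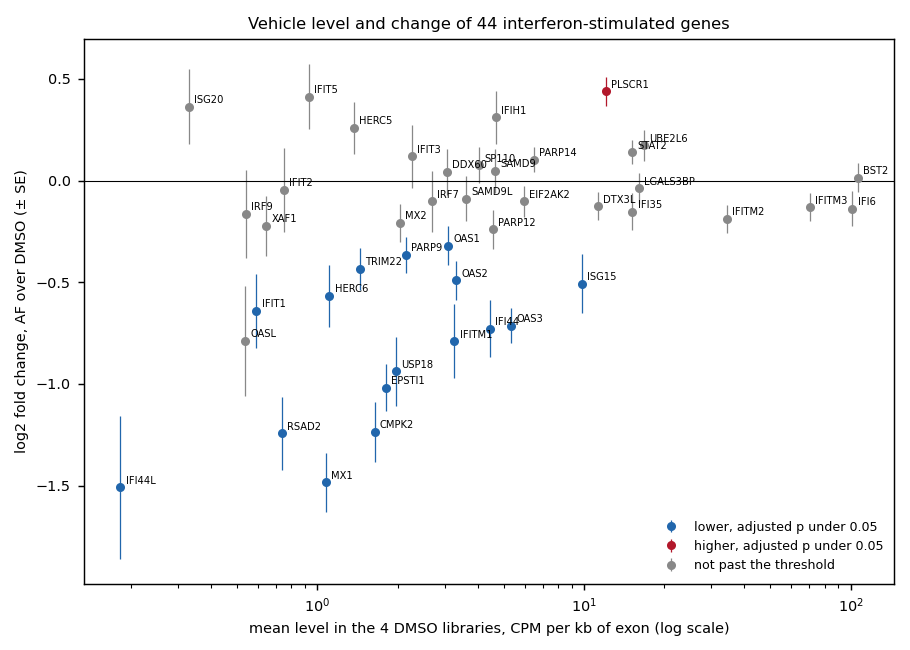
Each point is 1 of the 44 tested interferon-stimulated genes, with its DMSO level in CPM per kb of exon on a log horizontal axis and its log2 fold change (AF over DMSO) on the vertical axis. BST2, IFI6 and IFITM3 at the high end lie near 0, and most members that fell have lower levels.

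The genes of the interferon pathway around the set were read from 6 lists with 130 genes. Of 21 interferon genes none could be tested, and 17 had no count in any library. By total counts without TMM scaling, that allows up to 0.0928 CPM in the deepest library and 0.155 CPM in the shallowest (3 counts, counting error only). IFNB1 had 1 count in AF replicate 3 and 1 in DMSO replicate 2, and no interferon gene had more than 4 counts in a library. Of the 8 tested genes for interferon receptors and Janus kinases, 3 rose and 1 fell. IFNAR1, a chain of the type I receptor, had 142.0, 146.4, 159.5 and 168.9 CPM in AF libraries against 134.2, 115.0, 125.6 and 140.4 CPM in DMSO libraries, all higher (log2 fold change 0.26 ± 0.07, adjusted p = 0.0222). The IFNAR1 call was lost without AF replicate 3 or DMSO replicate 2 or 3, at adjusted p-values up to 0.0772. IFNGR1, a chain of the interferon-gamma receptor, rose by 0.41 ± 0.08 (adjusted p = 0.00271). IL10RB, a chain shared by the interferon-lambda receptor, rose by 0.20 ± 0.06 (adjusted p = 0.0374), a call lost without AF replicate 2, 3 or 4 or DMSO replicate 1, 2 or 4 (adjusted p up to 0.136). JAK2 changed by -0.27 ± 0.09 on the log2 scale (adjusted p = 0.0475), a call lost without AF replicate 2 or 3 or any DMSO library (up to 0.144). IFNAR2, JAK1 and TYK2 had log2 fold changes of -0.06, 0.06 and 0.09 and did not pass (adjusted p = 0.511, 0.469 and 0.476), although TYK2 passed without AF replicate 4 (0.0379). On the annotation used here AP000295.1 covers 38.1% of the exon bases of IL10RB and 44.2% of those of IFNAR2 on the same strand. IL10RB-DT covers 39.1% of the IFNAR2 exon bases on the other strand, so the counts of IL10RB and IFNAR2 may miss reads.

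Of the 17 tested sensors and adaptors upstream of interferon 5 fell and 3 rose. TLR7, an endosomal receptor for single-stranded RNA, had 6.69, 7.38, 7.71 and 9.55 CPM in AF libraries against 16.7, 19.8, 21.9 and 18.3 CPM in DMSO libraries. The groups are apart, and the log2 fold change of TLR7 was -1.29 ± 0.12 (adjusted p = 7.84e-06), beside -0.85 ± 0.13 for the related TLR8 (adjusted p = 0.000748). IRF5, a transcription factor downstream of these receptors, changed by -0.36 ± 0.08 on the log2 scale (adjusted p = 0.00529), and STING1, the adaptor of cytosolic DNA sensing, one of -0.32 ± 0.08 (adjusted p = 0.0147). TRAF3, an adaptor, rose by 0.51 ± 0.12 (adjusted p = 0.012), TBK1, the kinase that activates IRF3, by 0.36 ± 0.10 (adjusted p = 0.02) and CGAS, the DNA sensor upstream of STING1, by 0.36 ± 0.10 (adjusted p = 0.0268). Calls were lost for STING1 without AF replicate 3 or DMSO replicate 2 or 3 (up to 0.0727), for TBK1 without DMSO replicate 2 or 3 (up to 0.0876) and for CGAS without AF replicate 3 or DMSO replicate 2 or 3 (up to 0.0855). IRF3 did not pass (log2 fold change 0.07, adjusted p = 0.59). Of the 12 listed genes that restrain interferon signalling 3 rose and none fell, 25% called against 15.4% of all genes. USP18 and IFI44L, described above as restraining genes, are counted among the members and not on this list, and both fell. SOCS3, an inhibitor of Janus kinase signalling, had 18.9, 22.8, 20.1 and 17.98 CPM in AF libraries against 9.99, 9.93, 6.47 and 8.36 CPM in DMSO libraries, with no overlap (log2 fold change 1.20 ± 0.13, adjusted p = 3e-05). IRF2, a repressor that competes at ISRE sites, rose by 0.47 ± 0.06 (adjusted p = 0.000108). PIAS3, an inhibitor of STAT proteins, rose by 0.33 ± 0.09 (adjusted p = 0.0223), a call lost without AF replicate 3 or DMSO replicate 1 (0.0523 and 0.0587). SOCS1, an inhibitor of Janus kinases, had 0.690, 0.712, 0.650 and 0.624 CPM in AF libraries (13 to 24 reads) and 0.547, 0.310, 0.128 and 0.480 CPM in DMSO libraries (3 to 16 reads). All AF libraries lay above all DMSO libraries, but its log2 fold change of 0.85 ± 0.37 did not pass (adjusted p = 0.142).

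Among 21 tested genes linked to interferon-gamma and IRF1, 8 rose and 2 fell, with a median log2 fold change of 0.14. GBP5 and GBP2, guanylate-binding proteins, rose by 0.69 ± 0.10 (adjusted p = 0.000389) and 0.54 ± 0.09 (adjusted p = 0.000802). ICAM1, an adhesion molecule, rose by 0.70 ± 0.14 (adjusted p = 0.00313), and IRF1, the transcription factor, by 0.29 ± 0.08 (adjusted p = 0.0254). The IRF1 call was lost without AF replicate 2 or 3 or DMSO replicate 1, 2 or 3 (up to 0.0819). FCGR1A, a high-affinity receptor for IgG, changed by -0.20 ± 0.06 on the log2 scale (adjusted p = 0.0307), lost without AF replicate 1, 2 or 3 or DMSO replicate 2, 3 or 4 (up to 0.108). IL18BP, the secreted inhibitor of IL-18, changed by -0.80 ± 0.11 on the log2 scale (adjusted p = 0.000211). CXCL10, a chemokine, had 2, 4, 6 and 2 reads in AF libraries and 8, 8, 13 and 6 reads in DMSO libraries and was not tested. Of 42 tested type I interferon-stimulated genes outside the 45, 5 fell and 2 rose, with a median of -0.01, so the share that fell, 11.9%, lies nearer to the 7.81% of all genes than the share among the members does. The difference between the lists was not tested. SIGLEC1, a sialic acid-binding macrophage receptor often used as an interferon marker, had 39.4, 34.9, 33.9 and 33.8 CPM in AF libraries against 93.3, 98.5, 91.4 and 91.2 CPM in DMSO libraries. The groups are far apart (log2 fold change -1.40 ± 0.06, adjusted p = 5.36e-09). TRIM14, an adaptor in antiviral signalling, LGALS9, a secreted galectin, and ZC3HAV1, which binds CpG-rich viral RNA, had log2 fold changes of -0.45 ± 0.06 (adjusted p = 0.000196), -0.48 ± 0.08 (adjusted p = 0.000876) and -0.28 ± 0.05 (adjusted p = 0.00172). APOL1 rose by 0.43 ± 0.10 (adjusted p = 0.00945) and TRAFD1 by 0.27 ± 0.07 (adjusted p = 0.0208). The TRAFD1 call was lost without AF replicate 3 or DMSO replicate 1, 3 or 4 (up to 0.0885). With scaling by library totals alone 18 of the 26 pathway genes named here as changed lost their call, and ICAM1, IL18BP, LGALS9, SIGLEC1, SOCS3, TLR7, TLR8 and TRIM14 passed.

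**Figure D5:**
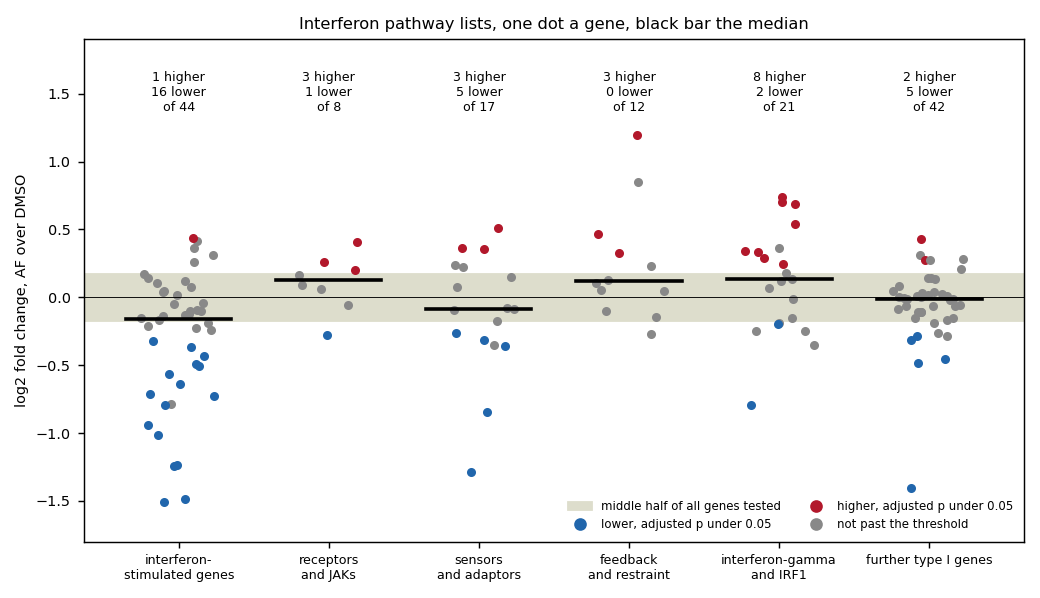
Log2 fold changes (AF over DMSO) of the tested genes are plotted for the 45-gene set and for the lists around it, with the median of each list marked. The median is -0.16 for the members, 0.14 for the interferon-gamma and IRF1 list and -0.01 for the other type I interferon-stimulated genes, with SIGLEC1 at -1.40 and SOCS3 at 1.20.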

How the data were processed

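The submitters made stranded poly-A libraries from 250 ng of total RNA, per the labels' protocols. The authors deposited 1 table of raw read counts per gene, whole numbers with no normalization. STAR 2.6.1d, featureCounts, Subread 1.6.3 and GRCh38 are named, per the submitters' processing notes, and for the gene annotation and the strand setting the sources used here name none. From the counts, CPM, fold changes and p-values were computed with edgeR 4.0.16 in R 4.3.3: filterByExpr, TMM scaling, glmQLFit and glmQLFTest, 4 AF against 4 DMSO libraries with no block, and Benjamini-Hochberg adjustment over 17535 genes at 0.05. The biological coefficient of variation was 12.8%, and depth was 19336073 to 32325981 counts per library. The scripts were tested on simulated data. The simulation drew independent libraries and planted changes of at least 2-fold, so it does not bear on shared name stems or smaller changes. No pair of libraries agreed within sampling noise (lowest chi-square per degree of freedom within a group 2.96), so all 8 entered singly. Alternatives used DESeq2 1.42.0, limma 3.58.1 (voom), other scalings, filters and left-out libraries.

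Positions, exon lengths and exon overlaps come from GENCODE 29 (GRCh38), and promoters from RefSeq, matched by symbol for 37 of 45 members. Genes were named by rule: every member, by library where it passed or belongs to the ISGF3, IFITM or ISG15 groups; up to 4 called genes with the smallest p per pathway list, any called gene against the majority of its list, and a set of core pathway genes whatever their result. Library values of MX2, OASL, IFIT2, IFIT3, IFIT5, IFIH1, ISG20, IFI6, BST2 and DTX3L are given beyond that rule. The sequences shown were chosen after the values were seen. The members and lists were chosen with earlier results of these data known. One gene on the pathway lists is not reported here.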

Additional observations from a re-analysis of the deposited data

Results flagged for a closer look

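In 12 of 158 groups of 4 libraries, over 79 genes, the library at one end stood far from the other 3 relative to the range of the group, and chance alone flags about 1 group in 20. Among the members that fell, AF replicate 4 stood apart in IFI44 with 7.14 CPM (the others 4.63 to 5.04), in PARP9 with 16.3 CPM (the others 14.3 to 14.6) and in TRIM22 with 7.06 CPM (the others 6.17 to 6.26). It was the highest AF library of each of these genes and the one nearest the DMSO libraries. Among members that did not pass, DMSO replicate 4 stood apart in ISG20 with 3.07 CPM (the others 2.16 to 2.26), in SAMD9L with 31.4 CPM (the others 23.5 to 24.4) and in LGALS3BP with 50.3 CPM (the others 59.5 to 60.3), and DMSO replicate 2 in IFIT2 with 2.87 CPM (the others 3.11 to 3.15). Among pathway genes, TRAFD1 was at 42.8 CPM in AF replicate 1 (the others 40.2 to 40.3), TBK1 at 29.5 CPM in DMSO replicate 2 (the others 35.5 to 36.3) and CXCL10 at 0.553 CPM in DMSO replicate 3 (the others 0.274 to 0.310). IFNB1 was at 0.0325 CPM in AF replicate 3 and 0.0388 CPM in DMSO replicate 2, each a single read with 0 in the other libraries of the group.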

How the results depend on the processing

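Of the 17 members called, 13 passed in all 8 fits that left out 1 library, HERC6, IFIT1, ISG15 and OAS1 did not, and none changed sign in any of the 20 alternatives run per gene. Of the members not called, 8 passed in some alternative. The count of members was 17 in the reported fit, 19 with DESeq2, 17 with RLE factors, 17 with ribosomal RNA taken out, 19 with no filter, 20 with voom, 17 with libraries of 1 name stem summed (2 higher and 15 lower; 15 of them among the reported 17, OAS1 and PARP9 lost, OASL and IFIH1 gained) and 13 to 18 with a library left out. All genes called ranged from 1616 (without DMSO replicate 2) to 2964 with a library left out, against 2705, with 1660 without AF replicate 3 and 1648 without DMSO replicate 3. The lists ranged from 1 to 4 for the receptors, 4 to 9 for the sensors, 2 to 4 for the restraining genes, 6 to 11 for interferon-gamma and 6 to 9 for the further type I genes. The cause of these differences was not tested.

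Library totals include ribosomal RNA, which was 34.8% of the counts in AF replicate 1, and its part in the following values was not tested. Scaling by library totals alone called 883 genes, of which 183 (20.7%) were higher, against 49.4% in the reported fit, and moved the median of all genes to -0.15. It called 13 members, all lower (12 of them among the reported 17, OASL gained), and 0 receptors, 2 sensors, 1 restraining gene, 2 interferon-gamma genes and 3 further type I genes. It reversed log2 fold changes of genes that were not called, to -0.012 in STAT2, -0.0452 in IFIT3, -0.0938 in DDX60, -0.135 in BST2, -0.0454 in PARP14, -0.0938 in SAMD9, -0.0666 in SP110, -0.0824 in IRF3, -0.0848 in JAK1 and -0.0593 in TYK2.

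With the replicate number as a block 4188 genes, 19 members, 5 restraining genes and 14 further type I genes passed. Numbers did not pair the libraries by the labels, and the deviations of same-numbered libraries correlated at 0.0093 to 0.308, with 3 of 4 AF libraries closest to their own number. DESeq2 and voom also called 5 restraining genes each, 4 higher and 1 lower. Replicates 1 and 4 alone, a division known from earlier results and not from the labels, called 212 genes, 3 members (MX1, OAS3, EPSTI1), 0 receptors and 1 gene in each of the sensor, restraining, interferon-gamma and further type I lists. Replicates 2 and 3 alone called 5354 genes, 23 members, 7 restraining genes and 15 further type I genes. Replicates 1 and 4 alone reversed genes that were not called, to 0.0761 in IRF9, 0.301 in IFIT2, -0.0155 in IFIH1, -0.0101 in DDX60, -0.0283 in BST2 and -0.0247 in TYK2. With a library left out, genes near 0 that changed sign ranged from -0.204 to 0.000479 in IRF7, -0.234 to 0.106 in IFIT2, -0.0441 to 0.0898 in DDX60, -0.0256 to 0.0781 in BST2, -0.0601 to 0.0979 in SAMD9, -0.133 to 0.016 in SAMD9L and -0.0965 to 0.0123 in LGALS3BP. An ISRE core with 1 mismatch was in 31 of 37 member promoters and 29.4% of all. Dividing by the longest transcript instead of all exons moved 33 of 44 DMSO levels per kb by more than their SD. At 4 libraries a group, low genes such as IRF9, with 42 to 57 reads in AF libraries and 44 to 60 in DMSO libraries, limit what can be seen.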
